A study of Arabidopsis thaliana with 12 samples.

Results

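Heated plants of an Arabidopsis thaliana double mutant, msh1 recA3, were compared with heated plants of the wild type, to ask which transcripts separate the genotypes at 37 °C. The 3 arrays titled as double mutant after heat shock and the 3 titled as wild type after heat shock were taken, 6 of the 12 arrays of the series. The other arrays held untreated wild type (n = 2) and untreated double mutant (n = 4). All plants were in the Col-0 background and 8 weeks old, and the wild type was Col-0 itself. They were grown on soil in short days and then moved to long days at 24 °C. Untreated plants stayed at 24 °C, and heated plants were exposed to 37 °C. The sources used here disagree on the length of the heat, with 2 h in the design text and sample names and about 24 h in the treatment protocol. RNA came from all above-ground parts together. The labels call the arrays of a group biological replicates without saying whether each held several plants, and the mutant alleles are not given in the sources used here.

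MSH1 is a nuclear gene for a protein related to bacterial mismatch repair proteins, targeted to mitochondria and plastids, where it limits recombination between short repeats of organelle DNA. RECA3 encodes a mitochondrial relative of the bacterial recombinase RecA, and loss of both is known to rearrange the mitochondrial genome. When mitochondria are disturbed, plants switch on nuclear genes, among them alternative NAD(P)H dehydrogenases that feed electrons into respiration without pumping protons, small proteins of the mitochondrial intermembrane space and transporters of the MATE family. The mutated genes themselves were not analysed here, because the annotation names no probe set for either.

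Signals were log2 RMA values on Affymetrix arrays, tested for 22746 probe sets, and genes were named from the 13513 that match 1 gene in the annotation. The leaf marker RCA, the activase of the carbon-fixing enzyme, read 13.77, 13.68 and 13.65 in the heated double mutant and 13.70, 13.67 and 13.58 in the heated wild type, so the labelled green tissue was present on every heated array. The root marker PYK10 read 6.71, 6.38 and 6.68 against 6.51, 5.94 and 6.34, and its genotypes overlapped. In untreated plants both markers were called higher in the double mutant. PYK10 differed there by 1.72 ± 0.33 (SE) and RCA by 0.46 ± 0.09 (SE) (limma adjusted p = 0.0234 and 0.0291). The cause of these untreated differences was not tested. Lower quartiles of the 6 heated arrays ran from 3.70 to 3.79, and a signal near that level was not shown to exceed background.

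Heated double mutant replicate 3 stood apart from its own group. Its root mean square distance to replicates 1 and 2 was 0.36 and 0.39 on the log2 scale, while those replicates were 0.27 apart. To the 3 heated wild-type arrays its distance was 0.32, 0.29 and 0.30, so by this measure it lay nearer to the wild type than to its own group. It differed by at least 1 from replicates 1 and 2 at 478 and 587 probe sets, and from the wild-type arrays at 198 to 252. Counts and the differences of called genes are therefore also given without this array.

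By limma, 204 of 22746 probe sets differed between the heated genotypes at an adjusted p under 0.05, which is 0.897% of those tested. The double mutant was higher at 113 (0.497%) and lower at 91 (0.4%). The 3 arrays of each genotype did not overlap at any of the 204, against 15.1% of all probe sets. With mutant replicates 1 and 2 alone the share of all probe sets was 36.5%, 18.6% higher and 17.9% lower. The calls were made on these same arrays, so their separation is a description only, here and for the called genes below. Over all probe sets the median difference was 0.0011, and 88 of the 204 calls reached a size of 1 on the log2 scale, 54 higher and 34 lower. At an unadjusted p under 0.05 there were 2808. Without double mutant replicate 3 the count rose to 1061 (4.66%), 513 higher (2.26%) and 548 lower (2.41%), and these included all 204. Leaving out another heated array lowered it, to 78 and 57 without double mutant replicates 1 and 2 and to 38, 119 and 110 without wild-type replicates 1, 2 and 3.

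The largest difference was in AT5G09570, known as AT12CYS-2, a small protein of the mitochondrial intermembrane space. Its signal was 9.45, 9.66 and 9.88 in the heated double mutant and 5.39, 5.06 and 5.46 in the heated wild type. All 3 mutant arrays were far above all 3 wild-type arrays, and replicate 3 was the highest of them. The difference was 4.36 ± 0.14 (SE) on the log2 scale (limma adjusted p = 4.75e-08), and 4.25 without replicate 3. Untreated plants differed by 4.65 ± 0.14 (SE), and the change of this difference with heat did not pass (adjusted p = 0.655). In RNA from whole shoots, more cells carrying a transcript and more transcript per cell cannot be told apart, here and in all results that follow.

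The mitochondrial stress markers, nuclear genes that respond to disturbed mitochondria, were higher at 2 of 6 measured members, against 0.497% of all probe sets. The list median was 0.42. The second called member was AT2G41730, a small protein of unknown function, whose probe set the manufacturer marks as possibly matching further transcripts. It read 10.38, 10.35 and 11.17 in the heated double mutant and 9.45, 9.35 and 9.68 in the heated wild type. Its genotypes did not overlap, and the difference was 1.14 ± 0.20 (SE) (adjusted p = 0.0271, difference 0.87 without replicate 3). UPOX (AT2G21640), a mitochondrial protein induced by oxidative stress, read 11.11, 10.95 and 11.63 against 10.41, 10.55 and 10.74. Its arrays were also fully separated, but the difference of 0.67 ± 0.16 (SE) did not pass (adjusted p = 0.0938), nor did it without replicate 3 (adjusted p = 0.067). The mitochondrial small heat shock protein HSP23.5 (AT5G51440) differed by 0.17 ± 0.17 (SE), AT12CYS-1 (AT5G64400) by 0.11 ± 0.08 (SE) and the glutathione transferase GSTU25 by 0.02 ± 0.09 (SE), and none of these passed. The call of AT2G41730 ended when any heated array other than double mutant replicate 3 was left out.

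Alternative respiration was represented by 5 type II NAD(P)H dehydrogenases, with a list median of 0.27. Of these, 1 was called higher, against 0.497% of all probe sets. NDB4, which faces the intermembrane space, stood at 5.07, 5.47 and 5.35 in the heated double mutant and at 4.20, 4.07 and 4.41 in the heated wild type. The groups were clear of each other and replicate 3 lay between its sister arrays, with a difference of 1.07 ± 0.16 (SE) (adjusted p = 0.0126, difference 1.04 without replicate 3). The call was lost without wild-type replicate 1 or without double mutant replicate 2. Its relative NDB3 stood at 5.79, 6.23 and 5.90 against 4.97, 4.82 and 5.28. Those groups were separate too, but the difference of 0.95 ± 0.21 (SE) did not pass with all arrays (adjusted p = 0.0607) and passed without replicate 3 (adjusted p = 0.0422). NDB1, NDB2 and the chloroplast and mitochondrial enzyme NDC1 differed by 0.17, 0.27 and -0.21, and their genotypes overlapped.

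Both genes measured in the list of MATE transporters, which export small organic compounds, were higher in the heated double mutant. Of all probe sets 0.497% were called higher. This list was chosen with earlier results of these data known, and its 2 genes do not speak for the whole MATE family. AT2G04050 read 6.66, 7.05 and 7.43 against 3.90, 3.98 and 3.29, with the wild-type arrays near the lower quartile of the signals. The difference was 3.32 ± 0.21 (SE) (adjusted p = 6.64e-05, difference 3.13 without replicate 3), and its size rests on a wild-type signal not shown to exceed background. AT2G04070 read 5.09, 5.79 and 5.33 against 4.32, 4.11 and 3.91, a difference of 1.29 ± 0.21 (SE) (adjusted p = 0.0169, difference 1.33 without replicate 3). Neither gene overlapped between genotypes. The call of AT2G04070 was lost without any of the 3 wild-type arrays and without double mutant replicate 2.

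**Figure D1:**
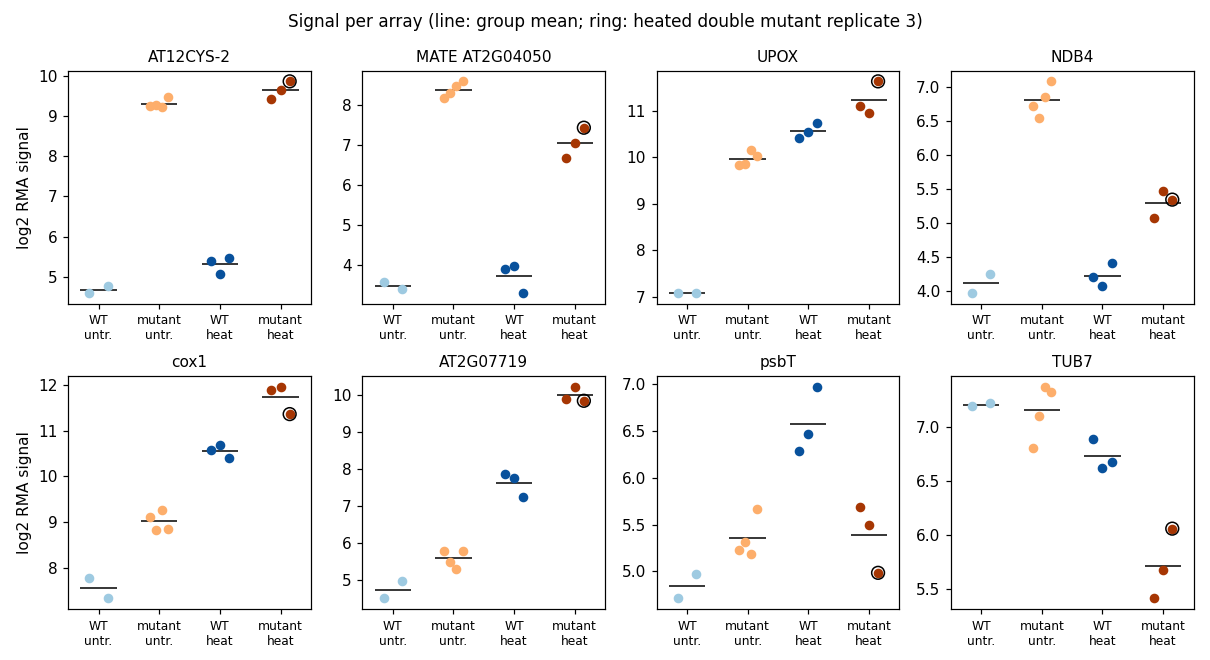
Signal per array (log2 RMA, vertical axes differ between panels) of 8 genes in untreated (untr.) wild type (WT, n = 2), untreated double mutant (n = 4), heated wild type (n = 3) and heated double mutant (n = 3). Points are arrays, lines are group means, and a ring marks heated double mutant replicate 3. AT12CYS-2 (AT5G09570) separates the genotypes with and without heat, whereas psbT and TUB7 lie lower in the mutant after heat than in the heated wild type.

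Transcripts of the mitochondrial genome were higher in the heated double mutant at 4 of 16 measured genes by the brightest probe set of each, with none lower, against 0.497% of all probe sets called higher. Over all 23 mitochondrial probe sets 6 were higher, and the further 2 belonged to nad1, described with complex I. Their median difference was 0.40 against 0.0011 over all probe sets, 15 of the 16 lay above 0, and 12 were higher without overlap against 7.04% of all probe sets. Among them, 3 of 4 genes of cytochrome c maturation, ccb452, ccb382 and ccb203, were called. The signal of ccb452 was 11.17, 11.12 and 10.94 against 9.88, 9.89 and 9.73, and that of ccb382 was 8.79, 9.30 and 8.47 against 7.80, 7.50 and 7.57. All mutant arrays were above all wild-type arrays for both, with differences of 1.24 ± 0.21 (SE) (adjusted p = 0.0207, difference 1.31 without replicate 3) and 1.23 ± 0.18 (SE) (adjusted p = 0.0128, difference 1.42 without replicate 3). The third, ccb203, differed by 1.096 ± 0.17 (SE) (adjusted p = 0.0154, difference 1.198 without replicate 3).

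Subunit I of cytochrome c oxidase, cox1, stood at 11.89, 11.97 and 11.37 in the heated double mutant and 10.58, 10.69 and 10.40 in the heated wild type. Replicate 3 was the lowest mutant array but above every wild-type array, and the difference was 1.19 ± 0.18 (SE) (adjusted p = 0.0138), or 1.37 without it. Subunit II, cox2, differed by 0.23 ± 0.16 (SE) and its genotypes overlapped. By their brightest probe sets none of the 8 measured complex I subunits passed. Of these, 6 were higher without overlap, against 7.04% of all probe sets. For nad1 the brightest probe set differed by 0.40 ± 0.28 (SE) (adjusted p = 0.647), while 2 dimmer ones were called higher, by 0.61 ± 0.11 (SE) and 0.66 ± 0.13 (SE) (adjusted p = 0.0271 and 0.0403, differences 0.68 and 0.72 without replicate 3), so its probe sets disagreed. The dimmer of these, at 4.54 ± 0.10 (SD, n = 3) against 3.87 ± 0.15 (SD, n = 3), lay near the lower quartile in the wild type. The nearest to passing among the brightest were nad4L, at 0.65 ± 0.14 (SE) (adjusted p = 0.0667, and 0.0157 without replicate 3), and nad6, at 1.16 ± 0.27 (SE) (adjusted p = 0.084). The mitochondrial median of each mutant array against the heated wild-type mean was 0.49, 0.45 and 0.52, so replicate 3 did not stand apart here. Leaving out replicate 3 gave 5 genes called higher, against 2.26% of all probe sets in that fit. The call of cox1 was lost without wild-type replicates 1 or 3 or double mutant replicates 1 or 2, and that of ccb452 without any heated array other than double mutant replicate 3. In untreated plants 8 of the 16 were higher in the double mutant, with a median of 0.78, against 2.23% of all probe sets.

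Col-0 carries a large copy of mitochondrial DNA inserted near the centromere of chromosome 2, whose annotated genes closely match the mitochondrial ones. In that insertion 11 of 34 measured genes were higher in the heated double mutant and none was lower (15 and none without replicate 3). Of all probe sets 0.497% were called higher with all arrays and 2.26% without replicate 3. The median of the 34 genes was 0.40, and 20 were higher without overlap against 7.04% of all probe sets. Many probe sets of the insertion are marked by the manufacturer as matching several transcripts, so insertion and mitochondrial transcripts cannot be told apart. AT2G07719 read 9.90, 10.22 and 9.84 against 7.86, 7.75 and 7.23, and AT2G07721 read 7.72, 7.66 and 6.32 against 4.89, 5.08 and 4.94. Both were fully separated, with replicate 3 of AT2G07721 well below the other mutant arrays. The differences were 2.37 ± 0.20 (SE) (adjusted p = 0.00058, difference 2.45 without replicate 3) and 2.26 ± 0.29 (SE) (adjusted p = 0.0054, difference 2.72 without replicate 3).

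AT2G07705 and AT2G07773, further loci of the insertion, differed by 1.79 ± 0.28 (SE) and 1.62 ± 0.29 (SE) (adjusted p = 0.0138 and 0.0256), and AT2G07676 by 1.16 ± 0.17 (SE). Without replicate 3 these differences were 2.04, 1.78 and 1.39. The call of AT2G07773 ended without any heated array other than double mutant replicate 3, that of AT2G07705 without wild-type replicate 1 or double mutant replicates 1 or 2, and that of AT2G07676 without wild-type replicate 1. In untreated plants the median over the 34 genes was 0.03 and 6 were called higher, against 2.23% of all probe sets. For AT2G07721 the untreated difference was 0.11 ± 0.30 (SE), and the difference between the heated and untreated genotype differences did not pass (adjusted p = 0.132). AT2G07722 differed more without heat, by 2.59 ± 0.21 (SE) against 1.04 ± 0.20 (SE) with heat, and this change did not pass either (adjusted p = 0.114).

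Transcripts of the plastid genome lay the other way. Of 69 measured genes 5 were lower in the heated double mutant, against 0.4% of all probe sets, and none was higher. The median of the 69 was -0.24, and 16 were lower without overlap against 8.08% of all probe sets. The photosystem II subunit psbT read 5.68, 5.50 and 4.99 in the double mutant and 6.28, 6.47 and 6.97 in the wild type. Every mutant array was below every wild-type array and replicate 3 was the lowest, with a difference of -1.19 ± 0.21 (SE) (adjusted p = 0.0271, difference -0.99 without replicate 3). The NDH complex subunit ndhK read 6.41, 6.53 and 6.56 against 7.57, 7.29 and 7.45, a difference of -0.94 ± 0.11 (SE) (adjusted p = 0.0038, difference -0.97 without replicate 3).

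The other plastid calls were the photosystem I subunit psaJ at -0.94 ± 0.19 (SE), the cytochrome b6f subunit petL at -0.92 ± 0.18 (SE) and the photosystem II subunit psbK at -0.69 ± 0.12 (SE) (adjusted p = 0.0449, 0.0379 and 0.0229). Without replicate 3 these differences were -0.80, -0.96 and -0.81. Both petL and psbK were named after their values were seen, to complete the count, and the alternatives for single genes were not run for them. Sorted by complex, the medians were -0.92 for 5 photosystem I genes, -0.41 for 10 NDH genes, -0.38 for 6 ATP synthase genes, -0.29 for 15 photosystem II genes, -0.11 for 6 cytochrome b6f genes and -0.19 for 15 ribosomal protein genes. The 4 genes of the plastid RNA polymerase had a median of 0.07. The 3 mutant arrays were uneven, and for photosystem I their medians against the wild type were -0.10, -0.71 and -1.22 in replicates 1, 2 and 3. Over all 69 genes the arrays stood at -0.02, -0.29 and -0.36, so replicate 1 was near the wild type.

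Without replicate 3 the plastid count was 7 lower genes with a median of -0.13, against 2.41% of all probe sets called lower in that fit. The calls of psbT and psaJ were lost without wild-type replicate 1 or 2 or without double mutant replicate 2. That of psbT was also lost without wild-type replicate 3, and that of psaJ without double mutant replicate 1, without any single untreated array and after quantile normalization between arrays. In untreated plants the plastid median was 0.11, with 2 genes higher and none lower. Of all probe sets 2.23% were called higher and 0.466% lower without heat, so these counts were near those shares. For none of the 69 genes did the change of the genotype difference with heat pass (limma adjusted p = 0.114 for psbT and 0.277 for psaJ). Nuclear genes of photosynthesis had no call among 9 and a median of -0.08.

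**Figure D2:**
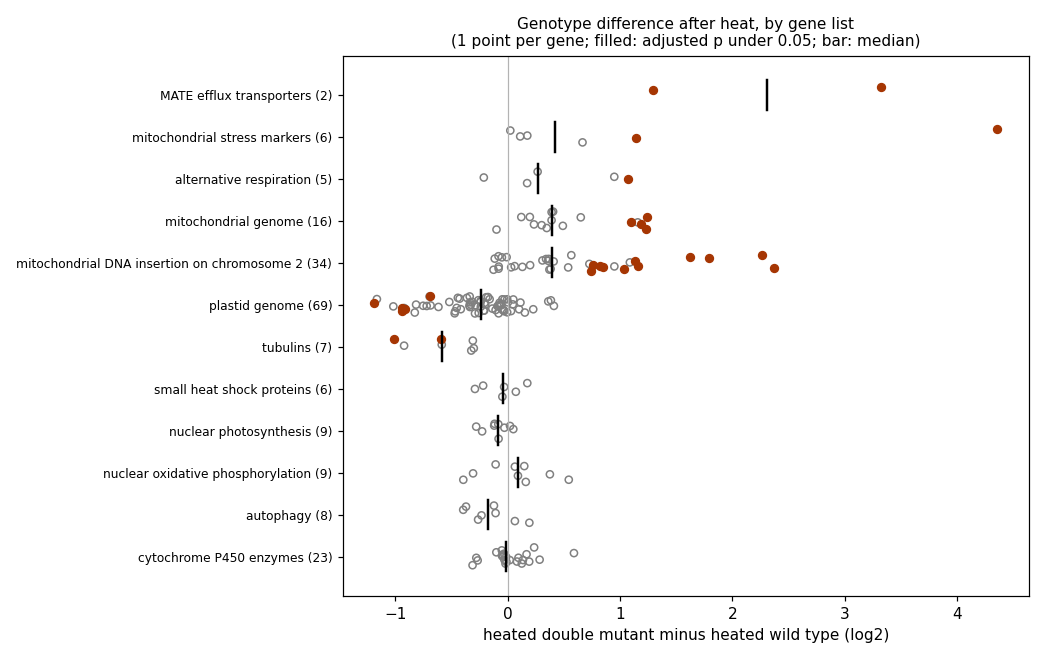
Heated double mutant minus heated wild type (log2, horizontal axis) for 12 gene lists, 1 point per gene and the number of measured genes in brackets. Filled points passed an adjusted p of 0.05 over all probe sets and bars are list medians. Mitochondrial and insertion genes spread to the right of 0, plastid genes mostly and tubulins wholly to the left, and the lists from small heat shock proteins downward hold no call.

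Tubulins, the subunits of microtubules, were lower in the heated double mutant at 2 of 7 measured genes. All 7 differences were below 0, with a median of -0.59, and 6 were lower without overlap, against 0.4% of all probe sets called lower and 8.08% lower without overlap. The beta-tubulin TUB7 read 5.41, 5.67 and 6.06 in the double mutant and 6.89, 6.61 and 6.67 in the wild type. The mutant arrays were all lower and replicate 3 was nearest to the wild type, with a difference of -1.01 ± 0.18 (SE) (adjusted p = 0.0235, difference -1.18 without replicate 3). The alpha-tubulin TUA6 read 10.06, 9.9997 and 10.05 against 10.74, 10.57 and 10.59, with mutant arrays close together and a difference of -0.60 ± 0.10 (SE) (adjusted p = 0.0169, difference -0.60 without replicate 3).

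TUB1 differed by -0.92 ± 0.19 (SE) and passed without replicate 3 (adjusted p = 0.054 with it and 0.0167 without it). It was named after its values were seen. In untreated plants the tubulin median was -0.05 and none was called. For none of the 7 tubulins did the change of the genotype difference with heat pass (limma adjusted p = 0.26 for TUB7 and 0.181 for TUA6). The calls of TUB7 and TUA6 ended without wild-type replicate 1 or without double mutant replicates 1 or 2, and that of TUB7 also without wild-type replicates 2 or 3.

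Wall-loosening proteins gave single calls, where 0.4% of all probe sets were called lower. The expansin EXPA8 read 5.20, 5.15 and 5.87 against 6.89, 6.32 and 6.26. Its groups did not overlap and the difference was -1.08 ± 0.21 (SE) (adjusted p = 0.0416, difference -1.32 without replicate 3), with 1 of 18 expansins called and a list median of -0.14. The xyloglucan endotransglucosylase XTH32, an enzyme that cuts and rejoins wall polymers, read 8.18, 7.64 and 8.29 against 9.11, 9.07 and 9.08. It was 1 of 9 and differed by -1.05 ± 0.19 (SE) (adjusted p = 0.0267, difference -1.17 without replicate 3). The calls of EXPA8 and XTH32 ended in the fits without any heated array other than double mutant replicate 3, and that of EXPA8 also without any single untreated array.

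Among called probe sets with 1 gene, the largest fall in the heated double mutant was in AT3G17130, of the family that inhibits invertases and pectin methylesterases, at 4.91, 4.67 and 5.99 against 7.44, 7.03 and 6.82. Replicate 3 lay between the other mutant arrays and the wild type, and the difference was -1.91 ± 0.33 (SE) (adjusted p = 0.0229), or -2.31 without it. AT5G15050, an enzyme that adds glucuronic acid to arabinogalactan proteins of the wall, differed by -1.18 ± 0.18 (SE). AT1G33811, a lipase of the GDSL family, differed by -1.498 ± 0.23 (SE), and AT1G58170, of the dirigent family that steers phenolic coupling, by -1.14 ± 0.11 (SE) (adjusted p = 0.0128, 0.0144 and 0.0013), and without replicate 3 by -1.30, -1.76 and -1.24. AT1G58170 read 6.62, 6.82 and 7.02 against 8.02, 8.06 and 7.82, without overlap, and kept its call in every alternative run. That of AT3G17130 was lost without any heated array other than double mutant replicate 3, that of AT1G33811 without wild-type replicates 1 or 3 or double mutant replicates 1 or 2, and that of AT5G15050 without wild-type replicate 1.

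Falls outside the wall included AT5G02540, of the short-chain dehydrogenase fold, at 4.52, 4.49 and 4.47 against 6.27, 5.90 and 5.78. The 3 mutant arrays were within 0.1 of each other and all below the wild type, with a difference of -1.49 ± 0.18 (SE) (adjusted p = 0.0038, difference -1.48 without replicate 3). AT3G11600, of unknown function, read 5.81, 5.96 and 5.56 against 7.24, 6.90 and 7.14, and differed by -1.32 ± 0.14 (SE) (adjusted p = 0.0015, difference -1.21 without replicate 3). Replicate 3 was the lowest array for this gene. Both genes were also called lower in the untreated double mutant, with differences of -0.88 and -0.99.

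The remaining large falls were the RNA-binding protein AT5G53680 at -1.60, AT1G62480, related to a vacuolar calcium-binding protein, at -1.31, the transcription factor bZIP58 at -1.25 and the glutaredoxin AT2G30540 at -1.22. AT5G25840, the transporter AT5G13400 of the NPF family and the phosphodiesterase-like AT4G38690 stood at -1.16, -1.14 and -1.05. Adjusted p for these 7 ran from 0.0126 for AT4G38690 to 0.0414 for AT1G62480, and each lost its call in at least 1 fit without a single array. Without replicate 3 their differences ran from -1.2 for AT4G38690 to -1.99 for AT5G53680. None of the 7 was called in untreated plants. The change of the difference with heat did not pass for any of them, with bZIP58 the nearest (limma adjusted p = 0.0993).

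Among other rises, AT3G10930, a precursor of an IDA-like signalling peptide, read 5.84, 4.93 and 5.44 against 3.49, 4.28 and 4.16. Its groups were separate and differed by 1.43 ± 0.26 (SE) (adjusted p = 0.031, difference 1.41 without replicate 3). For this gene wild-type replicate 1 read below the lower quartiles of the heated arrays and was not shown to exceed background. AT2G32020, an acetyltransferase of the GNAT family, read 5.65, 5.79 and 6.63 against 4.62, 4.47 and 4.90, with replicate 3 the highest array, and differed by 1.36 ± 0.23 (SE) (adjusted p = 0.0229, difference 1.05 without replicate 3). AT2G20720 differed by 1.46 ± 0.19 (SE) and AT1G32860, a beta-1,3-glucanase-like wall enzyme, by 1.24 ± 0.23 (SE) (adjusted p = 0.0071 and 0.0339), and without replicate 3 by 1.23 and 1.51. The first 3 of these genes were also called higher in untreated plants, and AT1G32860 was not (untreated difference 0.30 ± 0.25 (SE)). Its change of difference with heat did not pass either (limma adjusted p = 0.367). The calls of AT3G10930, AT2G32020 and AT1G32860 were each lost without wild-type replicate 1 or 2, and further arrays also ended them.

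Sugar and conjugation genes held few calls, where 0.497% of all probe sets were called higher and 0.4% lower. SWEET16, a sugar carrier of the vacuole membrane, read 4.02, 3.93 and 3.97 against 4.72, 4.57 and 4.45. All mutant arrays were lower and differed by -0.61 ± 0.10 (SE) (adjusted p = 0.0154, difference -0.61 without replicate 3), the only call among 14 SWEET genes with all arrays. The mutant signals of SWEET16 lay near the arrays' lower quartiles and were not shown to exceed background. Without replicate 3 SWEET11 and SWEET13, which export sucrose, passed as higher, with 0.63 ± 0.14 (SE) and 1.07 ± 0.20 (SE) (named after their values were seen). In that fit 2.26% of all probe sets were called higher. UGT73C1, which glycosylates cytokinins and foreign compounds, read 5.10, 5.63 and 5.90 against 4.46, 4.43 and 4.60 and was the only call among 47 UDP-glycosyltransferases, at 1.05 ± 0.16 (SE) (adjusted p = 0.0138, difference 0.87 without replicate 3). Both single calls ended without wild-type replicate 1, wild-type replicate 2 or double mutant replicate 2, and that of SWEET16 also without double mutant replicate 1.

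Chaperones gave no genotype call after heat. Of 6 small heat shock proteins none passed, and their differences ran from -0.29 to 0.17 with a median of -0.04 (0.02 after quantile normalization). Their signals were high in both heated genotypes, as in AT1G53540 at 13.69, 13.59 and 13.66 against 13.53, 13.74 and 13.75. None of 3 large chaperones and co-chaperones and none of 6 genes of protein folding in the endoplasmic reticulum passed. The unfolded protein response regulator BZIP60 differed by 0.49 ± 0.15 (SE) (adjusted p = 0.183). Precision was limited, with a median SE of 0.13 over all probe sets, so small differences could not have been called.

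Several other lists held no call with all arrays: 23 cytochrome P450 enzymes, 15 organelle RNA editing factors, 14 calcium sensors and kinases, 13 glutathione transferases, 11 auxin response genes, 10 extensins, 9 nuclear genes of oxidative phosphorylation and 8 autophagy genes. Without replicate 3, GLR3.5, GSTU20 and 1 RNA editing factor passed as higher, IAA29 and the calmodulin-like protein CML30 passed as lower, and oxidative phosphorylation gave 1 call each way. In that fit 2.26% of all probe sets were called higher and 2.41% lower. GLR3.5, a glutamate receptor-like channel, read 4.91, 4.65 and 4.84 against 4.33, 4.39 and 4.10, without overlap, and differed by 0.52 ± 0.11 (SE) (adjusted p = 0.0505 with all arrays and 0.0462 without replicate 3). The defence regulator WRKY53 read 7.04, 6.08 and 5.39 against 4.37, 6.01 and 4.26. Its groups overlapped and the arrays of each genotype ranged over more than 1, and the difference of 1.29 ± 0.47 (SE) did not pass (adjusted p = 0.277).

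Most pathway lists held few genes under their own names, so their counts do not speak for whole pathways. The lists of antioxidant enzymes (4 genes), flavonoid synthesis (5), branched-chain amino acid breakdown (5), WRKY factors (6) and cold and abscisic acid responses (3) had no call with or without replicate 3. In the last, COR15B, which protects chloroplast membranes in the cold, read 8.98, 8.84 and 7.44 against 6.54, 7.87 and 7.58, with replicate 3 inside the wild-type range. Heat shock factors, DNA damage genes, ethylene response factors and flower markers were not analysed here.

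The heated comparison was then set beside the untreated one, which shares no array with it. In untreated plants 613 probe sets (2.69%) were called, 507 higher (2.23%) and 106 lower (0.466%). The split was 165 and 110 after quantile normalization, and 292 and 4239 when arrays were centred on 5 reference genes, which moved the untreated median over all probe sets to -0.23 and the heated median to only -0.0035. Single arrays weighed on the untreated count, which was 113 and 140 without untreated wild-type replicates 1 and 2, 271 and 247 without untreated double mutant replicates 3 and 4, and 381 and 344 without heated wild-type replicates 1 and 2. Of the 113 probe sets higher after heat, 53 were also higher without heat, 46.9% of the heated list and 10.5% of the untreated one. Of the 91 lower after heat, 6 were also lower without heat, 6.59% of the heated list and 5.66% of the untreated one, and 2 were higher. Without replicate 3 the shared probe sets were 79 higher (15.4% and 15.6%) and 11 lower (2.01% and 10.4%). Whatever their p, 105 of the 113 and 64 of the 91 had the same sign in untreated plants.

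**Figure D3:**
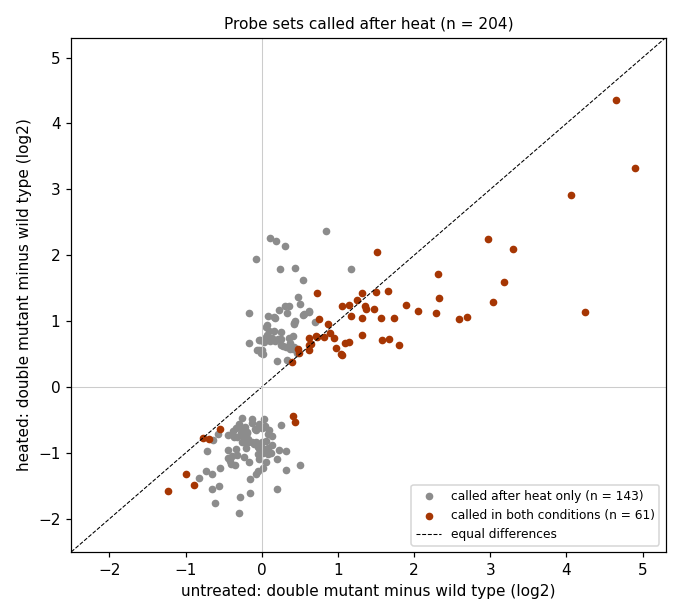
Genotype difference after heat (vertical axis, log2) against the genotype difference without heat (horizontal axis, log2) for the 204 probe sets called after heat. Dark points were called in both conditions (61) and grey points after heat only, and the dashed line marks equal differences. Many of the dark points with the largest untreated differences lie below the line, while the points lower after heat cluster near 0 on the horizontal axis.

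Across the 159 probe sets called in untreated plants with a size of at least 1, each heated array was placed between the heated wild-type mean (0) and the full untreated difference (1). The median place of heated double mutant replicates 1, 2 and 3 was 0.42, 0.48 and 0.37, and that of the heated wild-type arrays was -0.02, 0.02 and 0.01. By these medians replicate 3 lay nearer to mutant replicates 1 and 2 than to the 3 wild-type arrays. Its lower and upper quartiles were 0.16 and 0.59. Over the 613 untreated calls of any size its median was 0.22, with a lower quartile of -0.0078. The 159 probe sets were chosen for large untreated differences, which favours overestimates of those differences, and the places were not corrected for this.

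**Figure D4:**
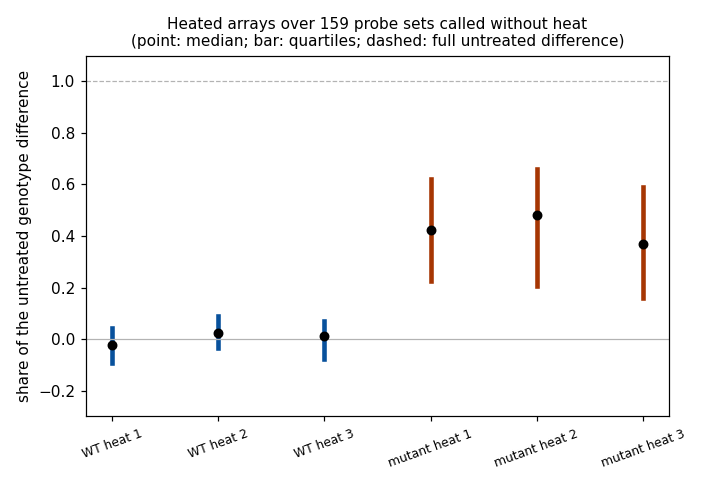
Place of each heated array (horizontal axis) between the heated wild-type mean (0) and the full untreated genotype difference (1, dashed) over 159 probe sets called without heat. Points are medians and bars are quartiles over probe sets. The mutant arrays lie at 0.37 to 0.48 and the wild-type (WT) arrays at -0.02 to 0.02.

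The genotype difference itself changed with heat at 17 probe sets (0.0747%), 5 toward higher (0.022%) and 12 toward lower (0.0528%) values in the double mutant. These 17 included only 7 of the 204 probe sets called after heat. Without replicate 3 there were 66 such changes (0.29%), 15 higher (0.0659%) and 51 lower (0.224%). Leaving out any other array gave 1 (untreated wild-type replicate 2) to 14 (untreated double mutant replicate 1). The split turned to 4 and 5 under quantile normalization, and to 11 and 4 when the reference genes set the array centres. UPOX (AT2G21640) went from 7.08 and 7.07 on the untreated wild-type arrays and 9.97 ± 0.15 (SD, n = 4) in the untreated double mutant to 10.56 ± 0.16 (SD, n = 3) and 11.23 ± 0.35 (SD, n = 3) after heat. The wild type was thus far below the mutant without heat and close to it with heat. The genotype difference changed by -2.23 ± 0.24 (SE) (adjusted p = 0.0086).

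AT2G41730 changed in the same direction, by -3.10 ± 0.30 (SE) (adjusted p = 0.0086), from an untreated difference of 4.24 ± 0.22 (SE). NDB4 went from an untreated difference of 2.69 ± 0.17 (SE) to 1.07 ± 0.16 (SE) after heat, a change of -1.62 ± 0.23 (SE) (adjusted p = 0.0383). The universal stress protein AT3G03270 changed by -1.30 ± 0.15 (SE) and the ribosomal L12-like protein AT2G03130 by -1.58 ± 0.23 (SE) (adjusted p = 0.0139 and 0.0408). The wild-type means of AT2G03130, 3.67 without heat and 3.84 with heat, lay near the arrays' lower quartiles, so the size of its change is uncertain. In the opposite direction AT3G28550, a proline-rich protein of the extensin kind, read 6.86 ± 0.54 (SD, n = 2) in untreated wild type, 3.68 ± 0.25 (SD, n = 4) in the untreated double mutant, 3.96 ± 0.38 (SD, n = 3) in heated wild type and 4.01 ± 0.11 (SD, n = 3) in the heated double mutant. Its signals outside untreated wild type lay near the arrays' lower quartiles and were not shown to exceed background, so the size of its change is uncertain. In the fit its genotype difference changed by 3.23 ± 0.33 (SE) (adjusted p = 0.0086). AT3G61840 changed by 0.94 ± 0.14 (SE) (adjusted p = 0.0449) at signals near the lower quartile.

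Replicate 3 was placed in the same way between the heated wild-type mean (0) and the mean of mutant replicates 1 and 2 (1). Over the 113 probe sets higher with all arrays its median place was 0.85, and over the 91 lower ones 0.68. For the 53 that were also higher in untreated plants it was 0.94, and for the 60 that were not called there 0.79. Over the 400 called as higher only without replicate 3 it was 0.13, and over the 457 called as lower 0.24. Of these 857 probe sets, 157 of the higher and 154 of the lower had replicate 3 inside the range of the heated wild type. These places follow from how the probe sets were chosen and are a description only.

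**Figure D5:**
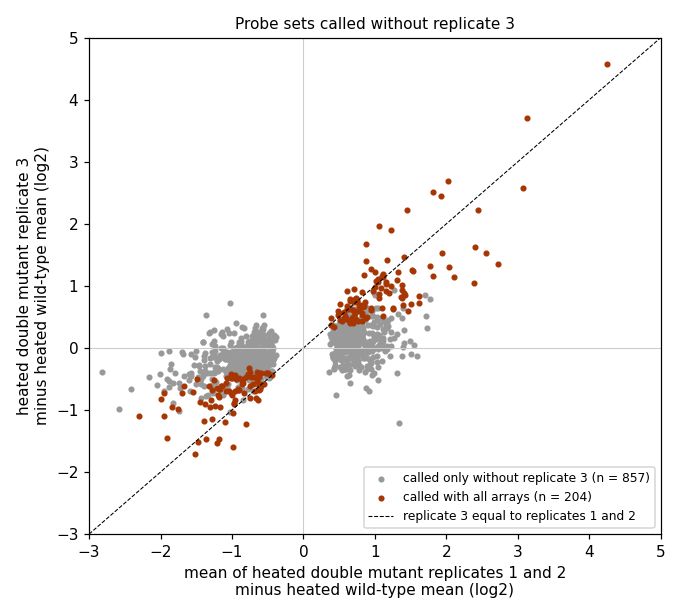
Heated double mutant replicate 3 minus the heated wild-type mean (vertical axis, log2) against the mean of replicates 1 and 2 minus the same wild-type mean (horizontal axis, log2) for the 1061 probe sets called without replicate 3. Dark points were called with all arrays (204) and grey points only without replicate 3 (857), and the dashed line marks equal values. Grey points gather near 0 on the vertical axis.

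Among genes called as lower only without replicate 3, the glutaredoxin AT1G06830 read 5.98, 5.005 and 7.09 in the heated double mutant and 8.39, 7.79 and 8.02 in the heated wild type. Replicate 3 was the mutant array nearest to the wild type, and the difference was -2.58 ± 0.42 (SE) without it (adjusted p = 0.0089) and -2.05 ± 0.48 (SE) with it (adjusted p = 0.084). DRT100, a leucine-rich repeat protein, read 5.48, 4.87 and 7.08 against 7.30, 7.11 and 7.09, so replicate 3 stood at the level of the wild type and the other 2 arrays did not. The MADS factor AGL42 read 4.27, 3.87 and 5.77 against 6.18, 6.17 and 6.36, with a difference of -2.17 ± 0.54 (SE) without replicate 3 (adjusted p = 0.0466). The RING protein AT1G14200, the gibberellin-responsive GASA protein AT1G22690, AT3G50560 and AT3G26960 differed by -1.96, -1.88, -1.82 and -1.82 on the same terms, and AT1G62500 by -1.70.

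Among genes called as higher only without replicate 3, PWD (AT4G24450), of the water dikinase family that phosphorylates starch, read 5.85, 6.53 and 4.79 against 4.52, 4.54 and 4.32. Replicate 3 was just above the wild type and far below the other mutant arrays, and the difference was 1.73 ± 0.33 (SE) without it (adjusted p = 0.0174) and 1.26 ± 0.40 (SE) with it (adjusted p = 0.2). AT2G42270, a helicase of the spliceosome, read 8.63, 8.98 and 7.10 against 7.26, 7.54 and 7.72, with replicate 3 below every wild-type array. AT1G15940, related to the cohesin cofactor PDS5, differed by 1.49 ± 0.32 (SE) without replicate 3, and AT2G24160, AT1G63530 and AT4G16680 by 1.502, 1.41 and 1.41. The insertion loci AT2G07728 and AT2G07732 differed by 1.39 and 1.31 on the same terms. With replicate 3 included none of the 16 genes named here passed.

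Of the 40 named genes called with all arrays, 7 kept their call in every alternative run on them. These were AT5G09570, AT2G04050, AT2G07719, AT5G02540, AT3G11600, AT1G58170 and ndhK. The others lost it in 1 to 13 alternatives, most often when a heated array other than double mutant replicate 3 was left out or when only the 6 heated arrays were fitted. In the heated comparison no named gene changed sign where it was called.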

How the data were processed

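The deposited table held log2 signals per probe set that the authors made with RMA from the affy package, per the submitters' processing notes, and versions are not given in the sources used here. This method subtracts background, makes the distributions of the arrays alike and combines the probes of a set, which compresses differences at dim signals. Of 22810 probe sets, 64 Affymetrix controls were left out. Groups were taken from the sample titles.

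In limma, the 12 arrays were fitted together with the 4 group means as coefficients, so that the groups shared an estimate of spread (8 residual and 3.22 prior degrees of freedom). Differences were tested two-sided after empirical Bayes moderation, with the Benjamini-Hochberg adjustment taken across the 22746 probe sets and a threshold of 0.05. Every adjusted p in the text comes from such a limma fit. Errors of differences are limma's moderated SE, and the number of arrays limits the precision. The script was tested on simulated data.

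Genes were named by the platform annotation, matched to RefSeq TAIR10.1 by gene number for 13436 probe sets and by organelle symbol for 18. A further 503 probe sets listed several genes and 8730 none. Each list used the brightest probe set per gene. Named were the 15 largest rises and 15 falls called without overlap, 8 and 8 called only without heated double mutant replicate 3, 8 and 8 of the untreated comparison, up to 3 and 3 per list, and up to 5 and 5 whose genotype difference changed with heat. Other list members in the text were named after their values were seen. Members, lists and tests were chosen with earlier results of these data known. Common names such as AT12CYS-2 and UPOX and all functions come from general knowledge. Alternatives covered scaling, filtering, moderation, array weights, a replicate block, single arrays left out, a size of 1 and separate fits of each treatment. Fits were run with limma 3.58.1 under R 4.3.3. Tables were handled with pandas 2.3.3 and NumPy 2.4.6 in Python 3.11.15, and plots were drawn with matplotlib 3.10.9.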

Additional observations from a re-analysis of the deposited data

Results flagged for a closer look

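Among 96 named genes, 7 had an untreated double mutant array set apart from the other 3, relative to the range of its group (Dixon's gap test). About 1 in 20 would be flagged by chance, so this count is near that rate. The test does not weigh the absolute size of a gap, and some gaps were small. AT5G09570 read 9.49 in replicate 4 (others 9.25 to 9.29). In replicate 1, AT5G02540 read 4.65 (others 4.05 to 4.15), AT5G12940 6.05 (others 5.17 to 5.31) and AT3G61840 3.85 (others 3.52 to 3.55). In replicate 2 the plastid genes psaJ and ndhK read 11.28 (others 11.38 to 11.39) and 7.43 (others 7.07 to 7.09), and in replicate 3 AT1G06830 read 6.43 (others 5.55 to 5.59).

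The genotype difference changed between untreated and heated plants at 7 named genes, by limma's test of that change. The change was -3.10 for AT2G41730 (adjusted p = 0.0086, from 4.24 to 1.14), -2.23 for AT2G21640 (adjusted p = 0.0086, from 2.89 to 0.67) and -1.62 for NDB4 (adjusted p = 0.0383, from 2.69 to 1.07). It was -1.58 for AT2G03130 (adjusted p = 0.0408, from 2.099 to 0.51) and -1.30 for AT3G03270 (adjusted p = 0.0139, from 1.78 to 0.49). It was 3.23 for AT3G28550 (adjusted p = 0.0086, from -3.18 to 0.05) and 0.94 for AT3G61840 (adjusted p = 0.0449, from -0.90 to 0.04).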

How the results depend on the processing

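The count of 204 for the heated genotypes was 206 after quantile normalization, 212 with centring on the reference genes, 175 in the upper 0.5 of probe sets and 222 with trend and robust moderation. It moved to 102 with a replicate block, 683 with array weights, 88 at a size of at least 1 and 33 in a fit of only the 6 heated arrays. Leaving out single arrays gave 38 to 1061. The 613 untreated calls became 275, 4531, 109, 159 and 109 after quantile normalization, with centring, with the replicate block, at the size of 1 and with only the untreated arrays, and 113 to 862 without single arrays. The 17 changes of the genotype difference became 9 after quantile normalization, 7 in the upper 0.5 of probe sets, 5 with the replicate block, 34 with array weights and 1 to 66 without single arrays. List calls rose from 31 to 50 without heated double mutant replicate 3 and were 32 with probe sets averaged per gene. With untreated calls of any size the mutant arrays were placed at 0.29, 0.29 and 0.22, and at a size of 2 replicate 1 stood at 0.36. The cause of these moves was not tested, apart from fewer arrays or probe sets where the setting itself has fewer. In the heated comparison none of the 40 named genes called with all arrays changed sign under the alternatives run on them. Values near 0 without a call did, among them the heated differences of AT3G28550 (-0.08 to 0.26), BHLH101 (-0.05 to 0.12), GI (-0.05 to 0.38) and NAC014 (-0.06 to 0.08). So did, after quantile normalization, the medians of small heat shock proteins (-0.04 to 0.02), large chaperones (-0.03 to 0.02) and antioxidant enzymes (-0.0012 to 0.03). With centring on the reference genes the changes of the genotype difference went from 5 higher and 12 lower to 11 and 4.

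Same-numbered arrays of different groups had residual correlations of -0.348 to 0.266 over 15 pairs. Of these, 3 were above 0.1, none of them among the 3 heated pairs. With 2 to 4 arrays per group, residuals from group means depend on each other. These correlations therefore cannot show whether same-numbered arrays share a batch.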
